A study of Mus musculus with 15 samples.

Results

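Memory-type CD8 T cells grown in a cytokine and inhibitor cocktail were compared with effector-type cells grown in IL-2. The comparison uses 6 of the 15 RNA-seq libraries of the study, 3 of sorted cocktail CD44+CD62L+ cells and 3 of sorted IL-2 CD44+CD62L- cells, and the libraries were taken by these labels alone. CD8 T cells selected from OT-I mice, whose transgenic receptor recognises the ovalbumin peptide SIINFEKL, were activated with bone marrow dendritic cells carrying that peptide, and both cultures ran for 14 days with a single passage. The cocktail held IL-7, IL-21, 2-deoxyglucose (a glucose analogue that blocks glycolysis) and TWS119 (an inhibitor of glycogen synthase kinase 3), and the other culture held IL-2 alone. The other 9 libraries, 3 each of cocktail CD44+CD62L- cells, cocktail CD44loCD62L+ cells and uncultured naive cells, entered the fit and are cited where they bear on a result. The 3 libraries of a population are technical replicates, so the p-values speak of the spread among libraries, which may be less than that among mice or cultures. The cocktail CD44+CD62L+ and IL-2 CD44+CD62L- cells differ both in culture and in the CD62L gate, and the 2 effects cannot be told apart in this comparison. The cocktail CD44+CD62L- cells, which share the gate of the IL-2 cells, are therefore given beside the main results.

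An activated CD8 T cell can become a short-lived effector cell that carries cytotoxic granules, or a memory cell that persists and divides again when antigen returns. The homing receptor CCR7 brings naive and central memory cells into lymph nodes, CD62L is a surface marker of the same cells, and CD44 marks cells that have met antigen. IL-2 drives effector differentiation through STAT5, while IL-7 and IL-21 act through the same shared receptor chain and favour survival and memory. The transcription factor TCF-1, encoded by Tcf7, is a hallmark of naive, memory and stem-like T cells, and its partner beta-catenin is stabilised when glycogen synthase kinase 3 is blocked.

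Levels are FPKM, which scale fragments by the length of the transcript and the size of the library, without read counts. FPKM sums ran from 669341 to 781949 over the 15 libraries. The most common ratio of low values between each library and a naive library gave the relative depth. It was 0.871 to 0.885 of the deepest library in cocktail CD44+CD62L+ cells and 0.803 to 0.815 in IL-2 cells, with the absolute depth unknown. Once low values were divided by this depth, 71.5% of 24679 ratios were whole to within 0.05, against 10% by chance. For genes of 10 to 100 FPKM the median coefficient of variation between libraries was 1.93% in cocktail CD44+CD62L+ cells and 1.95% in IL-2 cells. Markers of CD8 T cells were present in both: Cd3d, Cd3e, Cd3g, Cd8a and Cd8b1 ranged from 253 to 694 FPKM in the cocktail cells and from 218 to 642 FPKM in the IL-2 cells, and Cd4 averaged 0.00359 FPKM in cocktail cells and 0.0198 FPKM in IL-2 cells. In bulk samples, fewer cells of a type and less RNA per cell cannot be told apart.

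A gene was called changed where its limma adjusted p over all genes tested was under 0.05 and its values differed by 1 or more log2 units. Fold changes are on the log2(FPKM + 1) scale, so those of low genes are understated. Of 11242 genes tested, 917 changed (8.16%), of which 525 were higher (4.67%) and 392 lower (3.49%) in the cocktail cells. The fold criterion set these counts, since 9458 genes (84.1%) passed the adjusted p alone, 4701 higher (41.8%) and 4757 lower (42.3%). The libraries of the 2 populations did not overlap in 9563 genes (85.1%), so non-overlap was common to most genes. Large changes were few: 113 genes were higher and 85 lower by at least 2 log2 units, and 14 were higher and 11 lower by at least 4. The median log2 fold change of all genes was 0. The cocktail CD44+CD62L+ and cocktail CD44+CD62L- cells differed in 13 genes (0.116%), 4 higher (0.0356%) and 9 lower (0.0801%) in the CD62L+ cells. The cocktail CD44+CD62L- cells differed from the same IL-2 libraries in 882 genes (7.85%), 522 higher (4.64%) and 360 lower (3.2%). Because both cocktail populations are set against the same IL-2 libraries, their values are given side by side and not as independent results.

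The genes with the highest fold changes included Tcf7, Ccr7, Dapl1, Nrn1 and Lif. Cd44, a gate marker and so no finding, was at 38.5 ± 0.866 FPKM in cocktail cells and 23.9 ± 0.773 FPKM in IL-2 cells (SD, n = 3 each), below the minimum fold.

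Tcf7 (chromosome 11, 52252371 to 52283014 of GRCm38), encoding TCF-1, had 248.6, 252 and 248 FPKM in cocktail cells, against 2.43, 2.13 and 1.92 FPKM in IL-2 cells. Its log2 fold change was 6.31 ± 0.0394 (SE), with limma adjusted p = 3.48e-19. The libraries of the 2 populations did not overlap, as in 85.1% of all genes tested. The cocktail CD44+CD62L- cells, at 237 ± 2.24 FPKM, were close to the cocktail CD44+CD62L+ cells. Ccr7 (chromosome 11, 99144196 to 99155077), the lymph node homing chemokine receptor, had 77.1, 75.1 and 76.3 FPKM in cocktail cells, against 2.13, 1.85 and 2.26 FPKM in IL-2 cells. It rose by a log2 fold change of 4.65 ± 0.0351 (limma adjusted p = 1.91e-18). In cocktail CD44+CD62L- cells Ccr7 was at 46.9 ± 0.844 FPKM, so that the CD62L+ cells were higher by 0.69 log2 units, under the minimum fold.

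Dapl1, first known from epithelial differentiation, had 91.0, 85.9 and 87.8 FPKM in cocktail cells, against 0.187, 0.368 and 0.186 FPKM in IL-2 cells (log2 fold change 6.16). Nrn1 (chromosome 13, 36725361 to 36735131), encoding the neuronal growth factor neuritin, had 234, 235 and 236 FPKM in cocktail cells, against 2.86, 2.63 and 2.53 FPKM in IL-2 cells (log2 fold change 6.005 ± 0.0276, limma adjusted p = 3.11e-20). Naive cells had 0.438 FPKM of Nrn1, so this gene was high in the cocktail culture without being a gene of naive cells. Penk, encoding the opioid precursor proenkephalin, had 25.8, 26.2 and 24.8 FPKM in cocktail cells, against 0.256, 0.168 and 0.142 FPKM in IL-2 cells. Its naive level was 0.0382 FPKM, and in cocktail CD44+CD62L- cells it was 10.3 ± 0.357 FPKM, less by more than the minimum fold. Lif, encoding a cytokine of the IL-6 family, had 44.6, 44.5 and 45.3 FPKM in cocktail cells, against 0.405, 0.311 and 0.288 FPKM in IL-2 cells (log2 fold change 5.10). Tgm2, a transglutaminase, averaged 28.9 ± 0.572 FPKM in cocktail cells and 0.0814 ± 0.0563 FPKM in IL-2 cells, and Ms4a4c, a membrane protein gene of lymphocytes, averaged 167 ± 1.48 FPKM in cocktail cells and 4.53 ± 0.260 FPKM in IL-2 cells (SD, n = 3 each). Serpina3f, a serine protease inhibitor whose near-identical copies can share reads, averaged 33.1 ± 0.626 FPKM in cocktail cells and 0.828 ± 0.0210 FPKM in IL-2 cells.

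At the other end stood granzyme A and the small interferon-induced membrane protein IFITM1. Gzma (chromosome 13, 113093825 to 113100981), encoding a protease of cytotoxic granules, had 88.6, 87.0 and 89.4 FPKM in cocktail cells, against 8204, 8241 and 8288 FPKM in IL-2 cells. It fell by 6.53 on the log2 scale (SE 0.0422, limma adjusted p = 4.29e-19). Il10, encoding an anti-inflammatory cytokine, had 0.0287, 0.0283 and 0 FPKM in cocktail cells, against 15.9, 16.8 and 17.5 FPKM in IL-2 cells. Tnfrsf8, encoding the receptor CD30, had 1.80, 1.66 and 1.49 FPKM in cocktail cells, against 43.1, 42.6 and 41.4 FPKM in IL-2 cells. Its ligand gene Tnfsf8 went the other way, with 75.4, 76.9 and 78.0 FPKM in cocktail cells, against 4.07, 3.38 and 3.43 FPKM in IL-2 cells, so that ligand and receptor were each carried mainly by a different population.

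Further genes among the lowest were Igj, the joining chain of secreted antibodies, at 0.0662 ± 0.0498 FPKM in cocktail cells and 25.9 ± 0.472 FPKM in IL-2 cells. Gja5, a gap junction protein, was at 0.0144 ± 0.00611 FPKM in cocktail cells and 18.1 ± 0.297 FPKM in IL-2 cells. Esm1, a secreted proteoglycan, was at 0.254 ± 0.0691 FPKM in cocktail cells and 20.7 ± 0.639 FPKM in IL-2 cells. Each of these 3 genes was near 0 in all cocktail libraries and between 17.8 and 26.4 FPKM in all IL-2 libraries. Gpr15, a gut homing receptor, was at 0.357 ± 0.0316 FPKM in cocktail cells and 21.03 ± 1.15 FPKM in IL-2 cells, and Wnt10b, a Wnt ligand, at 0.264 ± 0.102 FPKM in cocktail cells and 18.1 ± 0.372 FPKM in IL-2 cells. Klra5, a Ly49 receptor gene of a family that shares reads, was at 7.40 ± 0.477 FPKM in cocktail cells and 119 ± 3.94 FPKM in IL-2 cells. Rpph1, the RNA of ribonuclease P, had 0.527, 3.63 and 1.05 FPKM in cocktail cells, against 93.4, 108.9 and 109 FPKM in IL-2 cells, and the spread of its cocktail libraries was wide for its level. It is a short RNA, a class for which FPKM is unsteady. Small RNA genes, counted without Rpph1, held 4.86% to 7.14% of the FPKM sum in cocktail cells and 5.64% to 10.6% in IL-2 cells. Whether this share has a part in the Rpph1 difference was not tested.

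**Figure D1:**
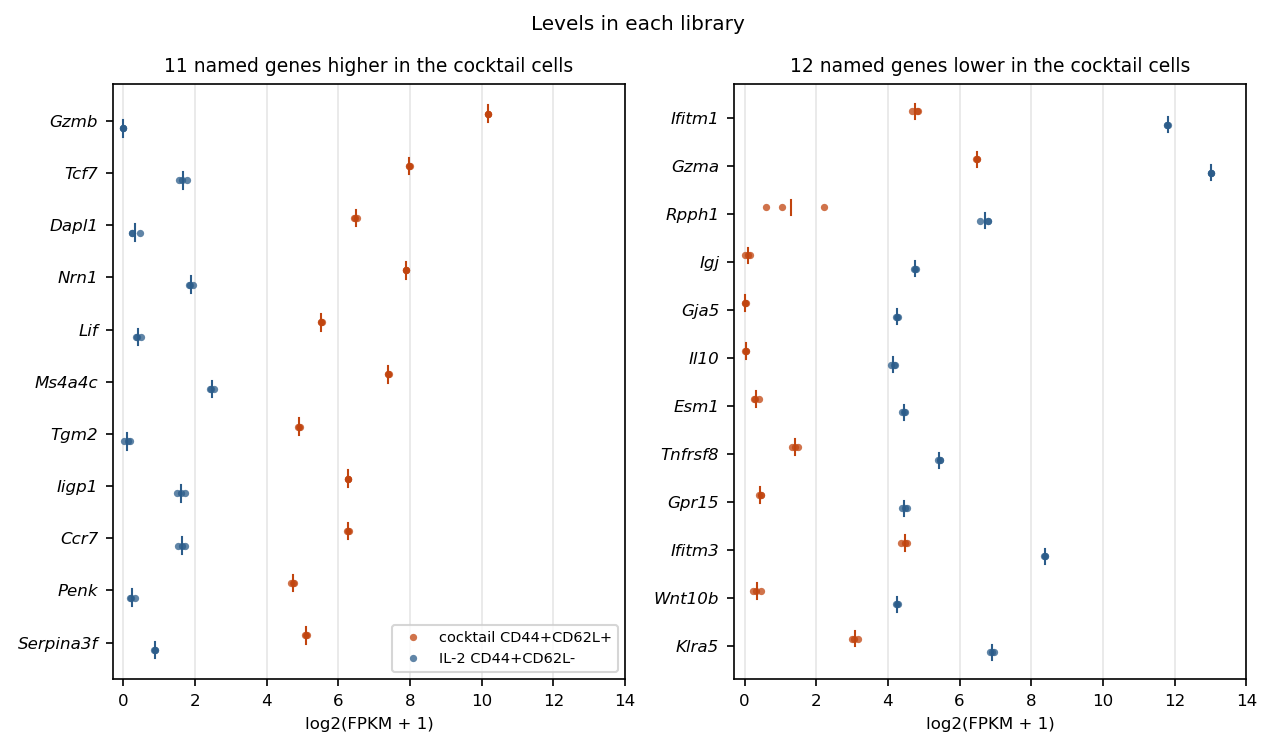
Level of each of 11 named genes among those with the highest (left) and the 12 with the lowest (right) fold change, as log2(FPKM + 1) in each library; orange points are the 3 cocktail CD44+CD62L+ libraries, blue points the 3 IL-2 CD44+CD62L- libraries, and vertical ticks their means. The colours do not overlap for any of these genes, which was a condition of their choice and held for 85.1% of all genes tested. Gzmb is listed at 0 in the IL-2 libraries, which may be a failed estimate.

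The naive and central memory list had the most members higher. Of 30 tested, 18 rose and 0 fell, with a median log2 fold change of 1.35, against 0 for all genes tested and a share of 4.67% higher. Slamf6, a SLAM family receptor of stem-like T cells, had 50.5, 51.5 and 50.2 FPKM in cocktail cells, against 3.22, 3.75 and 3.49 FPKM in IL-2 cells. Satb1, a chromatin organiser of T cell development, averaged 54.6 ± 0.560 FPKM in cocktail cells and 9.06 ± 0.257 FPKM in IL-2 cells. Il7r, the receptor chain for the cytokine supplied in the cocktail, had 82.7, 83.7 and 82.5 FPKM in cocktail cells, against 33.0, 31.6 and 32.1 FPKM in IL-2 cells (log2 fold change 1.34). Lef1, the relative of Tcf7, averaged 26.1 ± 0.308 FPKM in cocktail cells and 11.9 ± 0.420 FPKM in IL-2 cells (log2 fold change 1.07). The members differed widely in the size of the change: Tcf7, Dapl1 and Ccr7 were above 4 log2 units, while Lef1 was just past the minimum fold.

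Not every gene of this programme followed. Klf2, the factor that maintains quiescence and drives S1pr1 in naive cells, had 17.7, 17.0 and 17.3 FPKM in cocktail cells, against 25.1, 26.0 and 25.1 FPKM in IL-2 cells (log2 fold change -0.53, under the minimum fold). S1pr1, the receptor for exit from lymph nodes, had 14.2, 14.1 and 14.0 FPKM in cocktail cells, against 18.4, 18.7 and 18.2 FPKM in IL-2 cells (log2 fold change -0.36, also under it). Naive cells had 340 FPKM of Klf2 and 176 FPKM of S1pr1, so both cultured populations stood far below them. Foxo1, which acts upstream of Klf2, averaged 23.5 ± 0.302 FPKM in cocktail cells and 15.7 ± 0.292 FPKM in IL-2 cells, and the difference of 0.56 log2 units was not called. Cd28, the costimulatory receptor, averaged 49.9 ± 0.185 FPKM in cocktail cells and 50.6 ± 0.543 FPKM in IL-2 cells, with limma adjusted p = 0.187. In cocktail CD44+CD62L- cells 16 of the 30 genes were higher than in the same IL-2 libraries, with a median of 1.12, against 4.64% higher among all genes.

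**Figure D2:**
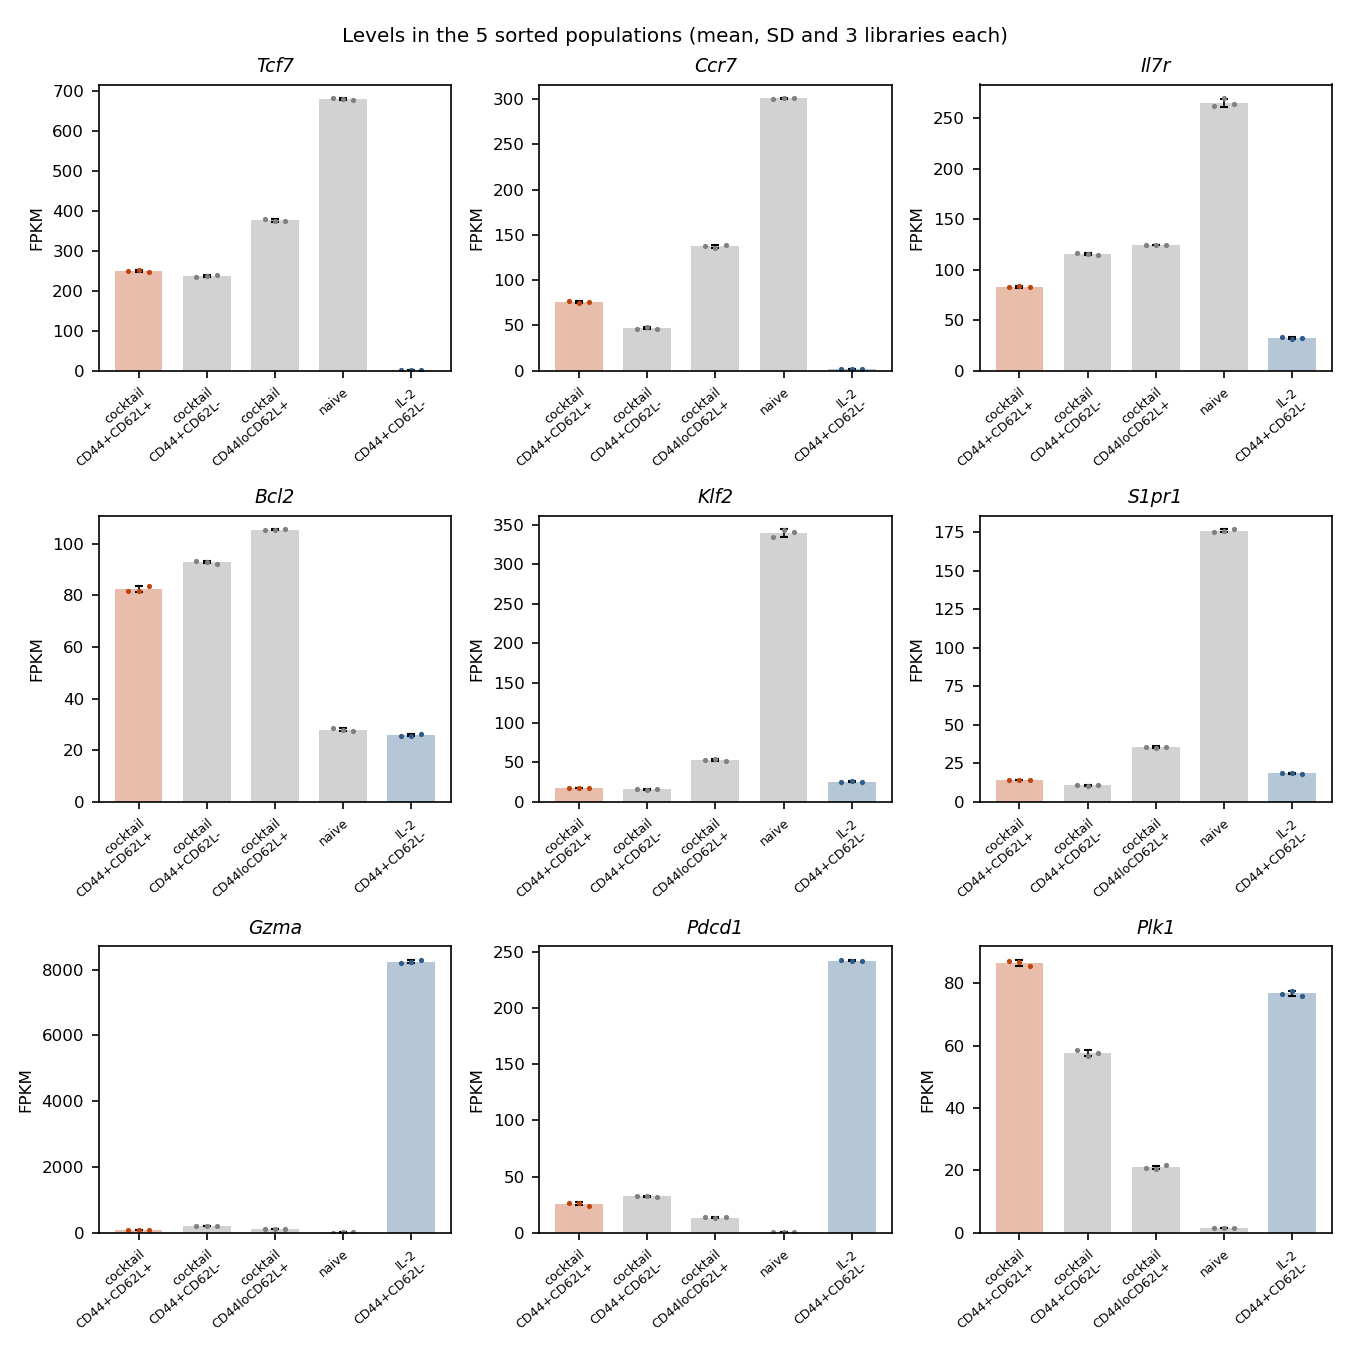
Mean FPKM (bars) with SD (error bars) and the 3 libraries (points) of 9 genes in the 5 sorted populations; orange marks cocktail CD44+CD62L+ cells and blue IL-2 CD44+CD62L- cells. Tcf7, Ccr7 and Il7r are intermediate in the cocktail CD44+CD62L+ cells, between naive and IL-2 cells, whereas Klf2 and S1pr1 are low in both cultured populations and Gzma and Pdcd1 are high in IL-2 cells.

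The cytotoxic effector list was mostly lower. Of 31 genes tested, 17 fell and 2 rose, with a median of -1.20, against a share of 3.49% lower among all genes tested. Of the 9 granzymes tested, proteases that kill target cells, 6 fell with values above 0 in both populations. Gzmg was also called lower and is counted among the 17, but it is listed at 0 in all 3 cocktail libraries and is not read as a fall. The granzymes other than Gzmb summed to 141, 143 and 144 FPKM in cocktail cells, against 8928, 8966 and 9018 FPKM in IL-2 cells, most of it Gzma. Gzmc had 48.2, 51.2 and 50.1 FPKM in cocktail cells, against 659, 661 and 667 FPKM in IL-2 cells (log2 fold change -3.71 ± 0.0309, limma adjusted p = 4.54e-18). The neighbouring Gzmd, Gzme, Gzmf and Gzmg are near-identical copies whose reads can be split between them. They lay at 0.844, 0.379, 0.149 and 0 FPKM in cocktail cells and at 19.6, 12.9, 13.3 and 1.31 FPKM in IL-2 cells. Together the granzymes c to g held 51.2 ± 1.59 FPKM in cocktail cells and 709 ± 3.64 FPKM in IL-2 cells (SD, n = 3 each). Gzmk, typical of early memory cells, had 2.16 ± 0.0914 FPKM in cocktail cells and 16.2 ± 0.984 FPKM in IL-2 cells. Gzmm was not called, at 1.10 ± 0.315 FPKM in cocktail cells and 1.28 ± 0.128 FPKM in IL-2 cells.

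Gzmb (chromosome 14, 56258838 to 56262260), encoding granzyme B, the main granzyme of effector CD8 T cells, had 1158, 1152 and 1151 FPKM in cocktail cells, against 0, 0 and 0 FPKM in IL-2 cells. It is one of the 2 effector genes called higher, but a listed 0 can be a failed estimate in this table, in which Eef1a1, a translation factor of every cell, is listed at 0 in all 15 libraries. No fold is therefore given, and the Gzmb difference cannot be read as a change. The other effector gene called higher was Xcl1, a chemokine that attracts cross-presenting dendritic cells, with 164, 167 and 159 FPKM in cocktail cells, against 15.9, 16.1 and 14.3 FPKM in IL-2 cells (log2 fold change 3.33). The gene of its receptor, Xcr1, was lower, at 0.614 ± 0.0374 FPKM in cocktail cells and 5.65 ± 0.157 FPKM in IL-2 cells.

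Prf1, encoding the pore-forming protein perforin, had 12.1, 11.9 and 13.1 FPKM in cocktail cells, against 81.1, 82.7 and 83.1 FPKM in IL-2 cells (log2 fold change -2.64). Ifng, the main effector cytokine gene, had 5.94, 7.09 and 5.78 FPKM in cocktail cells, against 43.0, 43.4 and 43.2 FPKM in IL-2 cells (log2 fold change -2.61). Every cocktail library was below every IL-2 library for both genes, while 85.1% of all genes tested had no overlap in one direction or the other. The inflammatory chemokine genes Ccl3, Ccl4 and Ccl5 summed to 63.4, 56.6 and 60.9 FPKM in cocktail cells, against 431, 434.5 and 436 FPKM in IL-2 cells, and each of the 3 fell. S100a4 and S100a6, calcium-binding proteins raised in effector cells, were at 187 ± 3.14 and 269.8 ± 3.31 FPKM in cocktail cells and at 2024 ± 24.4 and 1557 ± 10.7 FPKM in IL-2 cells. Other cytotoxic genes stayed within the minimum fold. Nkg7, a granule protein, averaged 606 ± 4.66 FPKM in cocktail cells and 758 ± 5.39 FPKM in IL-2 cells, and Fasl, a death ligand, averaged 31.5 ± 0.611 FPKM in cocktail cells and 45.6 ± 0.768 FPKM in IL-2 cells. Klrg1, a marker of terminal effector cells, was under 1 FPKM in both, at 0.0180 ± 0.0156 FPKM in cocktail cells and 0.511 ± 0.212 FPKM in IL-2 cells, and did not pass the filter on low values.

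**Figure D3:**
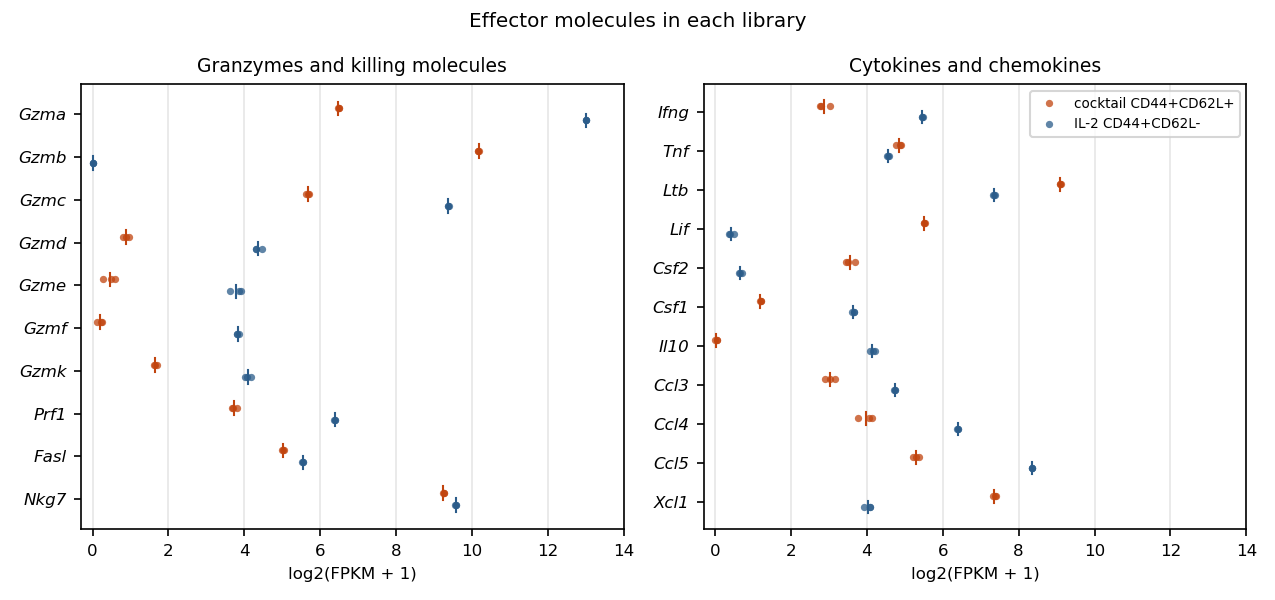
Level of granzymes and killing molecules (left) and of cytokines and chemokines (right) as log2(FPKM + 1) in each library; orange points are cocktail CD44+CD62L+ libraries, blue points IL-2 CD44+CD62L- libraries, and ticks their means. Granzymes other than Gzmb, perforin and the Ccl genes lie to the left in cocktail cells, while Lif, Csf2, Ltb and Xcl1 lie to the right; the Gzmb value of 0 in IL-2 cells may be a failed estimate.

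Among the secreted cytokines, 3 of 11 tested rose and 3 fell, with a median of 0.30, against 4.67% higher and 3.49% lower among all genes. Csf2, encoding the myeloid growth factor GM-CSF, had 11.9, 9.94 and 10.3 FPKM in cocktail cells, against 0.539, 0.572 and 0.620 FPKM in IL-2 cells, and it rose beside Lif. Ltb, encoding the lymphoid tissue cytokine lymphotoxin beta, averaged 546 ± 3.51 FPKM in cocktail cells and 162 ± 2.67 FPKM in IL-2 cells. Csf1, the macrophage growth factor gene, fell with Ifng and Il10, to 1.29 ± 0.0133 FPKM in cocktail cells, against 11.5 ± 0.169 FPKM in IL-2 cells. Tnf, encoding an inflammatory cytokine, averaged 27.9 FPKM in cocktail cells and 22.5 FPKM in IL-2 cells and was not called.

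Transcription factors of effector and memory fate changed in both directions, 6 of 35 higher and 3 lower, with a median of 0.19, against 4.67% higher and 3.49% lower among all genes. Eomes, a T-box factor of memory cells, had 36.1, 34.2 and 35.2 FPKM in cocktail cells, against 10.7, 10.2 and 9.97 FPKM in IL-2 cells (log2 fold change 1.68). Its relative Tbx21, encoding T-bet, a driver of effector fate, had 20.52, 20.95 and 22.52 FPKM in cocktail cells, against 37.6, 37.8 and 38.2 FPKM in IL-2 cells, a log2 fold change of -0.80 that was not called. Prdm1, encoding Blimp-1, a repressor that promotes terminal effector cells, fell to 1.10, 1.07 and 1.13 FPKM in cocktail cells, against 9.74, 9.94 and 9.87 FPKM in IL-2 cells (log2 fold change -2.37 ± 0.0366, limma adjusted p = 1.81e-15). Id3 and Bach2, which restrain effector differentiation, rose: Id3 averaged 9.48 ± 0.805 FPKM in cocktail cells and 2.25 ± 0.472 FPKM in IL-2 cells, and Bach2 averaged 6.91 ± 0.0567 FPKM in cocktail cells and 0.975 ± 0.153 FPKM in IL-2 cells. Both calls were lost with a pseudocount of 5 FPKM, at log2 fold changes of 0.9983 for Id3 and 0.9952 for Bach2. Id2, the effector counterpart of Id3, was at 316 ± 4.28 FPKM in cocktail cells and 225 ± 1.54 FPKM in IL-2 cells, not lower in the cocktail cells.

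Tox, a factor of chronically stimulated T cells, averaged 8.26 ± 0.322 FPKM in cocktail cells and 0.610 ± 0.0810 FPKM in IL-2 cells, and Ikzf2, encoding Helios, 12.9 ± 0.171 FPKM in cocktail cells and 3.29 ± 0.113 FPKM in IL-2 cells. Naive cells had 20.6 FPKM of Tox, more than either cultured population, and 3.145 FPKM of Ikzf2. Bcl6 and Zeb2, a memory and an effector factor, were both near 1.5 FPKM in cocktail cells and under 0.5 in IL-2 cells. Bcl6 was at 1.74 ± 0.0620 FPKM in cocktail cells and 0.458 ± 0.0858 FPKM in IL-2 cells, Zeb2 at 1.51 ± 0.146 FPKM in cocktail cells and 0.414 ± 0.0167 FPKM in IL-2 cells, and neither was called, although both passed with a pseudocount of 0.1 FPKM. Myc, a driver of growth, was at 71.7 ± 0.950 FPKM in cocktail cells and 82.8 ± 0.965 FPKM in IL-2 cells, and was not called.

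Inhibitory and costimulatory receptors split evenly, with 8 of 25 higher and 8 lower and a median of 0.58, against 4.67% higher and 3.49% lower among all genes. Pdcd1 (chromosome 1, 94038305 to 94052553), encoding the inhibitory receptor PD-1, had 26.4, 26.4 and 24.2 FPKM in cocktail cells, against 243, 242 and 242 FPKM in IL-2 cells. It fell by 3.19 on the log2 scale (SE 0.0730, limma adjusted p = 9.22e-14). Havcr2, encoding the inhibitory receptor TIM-3, had 6.90, 7.60 and 7.84 FPKM in cocktail cells, against 73.3, 72.2 and 74.9 FPKM in IL-2 cells (log2 fold change -3.14). Cd244, encoding the SLAM receptor 2B4, averaged 1.11 ± 0.0680 FPKM in cocktail cells and 20.9 ± 0.145 FPKM in IL-2 cells. Tigit and Entpd1 (the ectoenzyme CD39) were lower as well, at 36.3 ± 0.799 and 4.19 ± 0.171 FPKM in cocktail cells and at 108 ± 1.21 and 18.5 ± 0.564 FPKM in IL-2 cells. Lag3, another inhibitory receptor, did not follow: it had 91.1, 86.7 and 89.6 FPKM in cocktail cells, against 97.5, 95.6 and 93.5 FPKM in IL-2 cells, with limma adjusted p = 0.0590. Ctla4, the inhibitory rival of Cd28, was just past the minimum fold, with 99.3, 96.7 and 97.7 FPKM in cocktail cells, against 201, 200.5 and 199 FPKM in IL-2 cells (log2 fold change -1.02), and its value was -0.82 after quantile normalization, which ends the call. Of the 8 genes that rose, 5 were TNF family ligands or receptors, among them Tnfsf14 (LIGHT), at 13.4 ± 0.681 FPKM in cocktail cells and 2.55 ± 0.187 FPKM in IL-2 cells. The others were Cd226, an activating receptor gene, and the inhibitory receptor genes Lilrb4 and Cd200r1. Cd226 was at 60.4 ± 0.262 FPKM in cocktail cells and 21.7 ± 0.700 FPKM in IL-2 cells. Lilrb4 was at 99.7 ± 0.877 FPKM in cocktail cells and 28.2 ± 0.260 FPKM in IL-2 cells. Cd200r1 was at 15.8 ± 0.307 FPKM in cocktail cells and 6.03 ± 0.109 FPKM in IL-2 cells, and lost its call with a pseudocount of 5 FPKM (0.92). The TNF family genes Tnfrsf4 (0.93), Tnfsf10 (0.9974) and Tnfsf11 (0.89) lost theirs at that setting too. Among the genes that fell, so did Ctla4 (-0.9961) and Tnfrsf9 (-0.9876).

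Receptors for the cytokines of the 2 cultures differed as well. Of 25 cytokine receptor genes, 6 rose and 3 fell, with a median of 0.52, against 4.67% higher and 3.49% lower among all genes. Il2ra, the high-affinity chain for IL-2, had 67.1, 70.0 and 67.9 FPKM in cocktail cells, against 234, 234 and 236 FPKM in IL-2 cells (log2 fold change -1.77). Il2rb, the signalling chain for IL-2 and IL-15, had 295, 297 and 295 FPKM in cocktail cells, against 746, 755 and 747 FPKM in IL-2 cells (log2 fold change -1.34). Il2rg, the chain shared with the IL-7 and IL-21 receptors, was at 481 ± 2.33 FPKM in cocktail cells and 299 ± 3.25 FPKM in IL-2 cells and was not called. Il21r was at 63.3 ± 0.324 FPKM in cocktail cells and 75 ± 1.31 FPKM in IL-2 cells, also not called. Il6st, the signalling chain of the IL-6 family, averaged 7.06 ± 0.135 FPKM in cocktail cells and 2.12 ± 0.0177 FPKM in IL-2 cells, and Ifnar2, of the type I interferon receptor, averaged 63.6 ± 0.485 FPKM in cocktail cells and 23.7 ± 0.599 FPKM in IL-2 cells. Il1rl1, the IL-33 receptor, fell to 0.299 ± 0.0714 FPKM in cocktail cells, against 7.40 ± 0.273 FPKM in IL-2 cells.

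Of 18 SOCS and JAK-STAT feedback genes, 0 rose and 2 fell, with a median of 0.14, against 4.67% higher and 3.49% lower among all genes. Socs2, a STAT5 target, had 11.4, 11.6 and 10.7 FPKM in cocktail cells, against 51.7, 51.8 and 50.8 FPKM in IL-2 cells (log2 fold change -2.11), and Pim1, a kinase induced by the same pathway, averaged 58.8 ± 0.547 FPKM in cocktail cells and 139 ± 2.86 FPKM in IL-2 cells. Cish, another STAT5 target, did not share this: it had 113, 112 and 113 FPKM in cocktail cells, against 115, 116 and 117 FPKM in IL-2 cells (log2 fold change -0.04). Socs3, a STAT3 target, was at 15.5 ± 0.514 FPKM in cocktail cells and 8.20 ± 0.0855 FPKM in IL-2 cells, and the difference of 0.84 log2 units was not called.

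In the homing and adhesion list 5 of 29 rose and 6 fell, with a median of 0.16, against 4.67% higher and 3.49% lower among all genes. Besides Ccr7, Itga4, the integrin chain for entry into inflamed tissue, had 29.36, 29.95 and 29.86 FPKM in cocktail cells, against 2.21, 2.18 and 2.31 FPKM in IL-2 cells (log2 fold change 3.25). Cxcr6, a receptor of tissue-resident cells, was lower, at 106.5 ± 2.54 FPKM in cocktail cells and 249 ± 2.40 FPKM in IL-2 cells, and so was Ccr4, a receptor for skin homing, at 1.77 ± 0.234 FPKM in cocktail cells and 6.75 ± 0.289 FPKM in IL-2 cells. Cxcr3, a receptor for inflamed tissue, was at 110.1 ± 0.263 FPKM in cocktail cells and 111 ± 1.26 FPKM in IL-2 cells, with limma adjusted p = 0.378.

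Wnt pathway genes, Tcf7 among them, were called in both directions, with 4 of 23 higher, 3 lower and a median of 0.12, against 4.67% higher and 3.49% lower among all genes. Axin2, the classical target of beta-catenin, had 1.98, 1.99 and 2.08 FPKM in cocktail cells, against 1.32, 1.34 and 1.25 FPKM in IL-2 cells (log2 fold change 0.39, not called). Ctnnb1, beta-catenin itself, had 80.9, 81.6 and 81.8 FPKM in cocktail cells, against 97.0, 98.0 and 98.8 FPKM in IL-2 cells (log2 fold change -0.26, not called). Lef1, Rnf43 (a Wnt target that removes Wnt receptors) and Tle3 (a corepressor that binds TCF factors) rose by 1.07, 1.07 and 1.02 log2 units. Rnf43 lost its call, at 0.98, after quantile normalization. The receptor gene Lrp5, the corepressor gene Tle1 and the ligand gene Wnt10b fell by 1.38, 2.08 and 3.92 log2 units. With a pseudocount of 5 FPKM the calls of Lef1 (0.88), Rnf43 (0.48), Tle3 (0.91), Lrp5 (-0.70) and Tle1 (-0.82) were lost.

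The interferon-induced genes divided by family. The interferon-inducible GTPases, which attack intracellular pathogens, stood higher in the cocktail cells, and the IFITM proteins, which block virus entry at membranes, stood lower.

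The promoters of these genes are shown because the members of the 2 families moved in opposite directions. RefSeq promoters of GRCm38.p6 were searched, on both strands and over the 250 bases before each start, for the interferon-stimulated response element core, which is GAAA, any 2 bases and GAAA again, and for the STAT site TTCNNNGAA. RefSeq starts can differ from the GENCODE gene spans given above. The sequences below run 5′ to 3′ on the gene's strand, and capitals mark matches, which read as the reverse complement where the core lies on the opposite strand. No base was shared by both motifs. They stand at chr3:142620413-142620662 (plus strand) for Gbp2, chr11:58199306-58199555 (plus strand) for Igtp, chr7:140955962-140956211 (minus strand) for Ifitm2 and chr7:140967826-140968075 (plus strand) for Ifitm1.
Gbp2: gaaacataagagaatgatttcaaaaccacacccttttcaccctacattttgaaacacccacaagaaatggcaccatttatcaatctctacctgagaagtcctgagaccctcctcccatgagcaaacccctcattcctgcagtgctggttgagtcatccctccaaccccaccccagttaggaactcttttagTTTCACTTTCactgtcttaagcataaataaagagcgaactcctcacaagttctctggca
Igtp: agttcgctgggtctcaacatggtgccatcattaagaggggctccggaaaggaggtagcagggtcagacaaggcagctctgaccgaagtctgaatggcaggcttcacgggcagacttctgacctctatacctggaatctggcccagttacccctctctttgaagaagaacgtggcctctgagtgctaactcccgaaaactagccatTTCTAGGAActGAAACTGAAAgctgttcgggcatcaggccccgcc
Ifitm2: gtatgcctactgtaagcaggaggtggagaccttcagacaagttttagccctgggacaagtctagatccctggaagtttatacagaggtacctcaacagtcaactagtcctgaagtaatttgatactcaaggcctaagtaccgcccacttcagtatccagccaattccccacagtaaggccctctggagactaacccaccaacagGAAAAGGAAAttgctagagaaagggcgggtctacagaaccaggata
Ifitm1: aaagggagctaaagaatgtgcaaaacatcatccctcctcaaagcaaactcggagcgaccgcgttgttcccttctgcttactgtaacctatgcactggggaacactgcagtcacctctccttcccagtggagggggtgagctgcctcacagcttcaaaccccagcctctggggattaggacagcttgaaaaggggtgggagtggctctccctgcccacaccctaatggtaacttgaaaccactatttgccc

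The core was found in the promoters of all 9 GTPase genes with a RefSeq match, of 16 tested, in 10 of 23 matched type I interferon genes and in 1 of the 3 Ifitm genes, Ifitm2. Among all 32851 listed starts 2.98% held it, and among the 8009 tested genes with a match 3.36% did. The STAT site was found in 6 of the 9 GTPase promoters, in 5 of 23 type I interferon promoters and in 0 of the 3 Ifitm promoters, against 7.02% of all starts. In Igtp, which encodes a GTPase of the IRG family, the STAT site began 45 bases and the core 34 bases before the start, and this gene had 329, 331 and 331.5 FPKM in cocktail cells, against 125, 127 and 129 FPKM in IL-2 cells. In Gbp2 the core began 59 bases and in Ifitm2 46 bases before the start, while the Ifitm1 window held neither motif. That window lies inside the GENCODE span of Ifitm1, 140967221 to 140969825, and the bases before that span were not searched. The Gbp2 window also runs into the GENCODE span of its gene, and the Gbp2 core lies inside that span. The Ifitm2 window overlaps the span of Ifitm2 at its end, but the Ifitm2 core lies before that span. A match of letters is a description of the window and not a site in use.

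Of 16 GTPase genes tested, 12 rose, 0 fell and all 16 had a fold change above 0, with a median of 1.40, against 4.67% higher among all genes. Iigp1 had 75.8, 76.3 and 76.2 FPKM in cocktail cells, against 2.32, 2.07 and 1.82 FPKM in IL-2 cells (log2 fold change 4.65 ± 0.0424, limma adjusted p = 1.03e-17). Gbp11 had 26.8, 26.7 and 26.8 FPKM in cocktail cells, against 1.40, 1.46 and 1.44 FPKM in IL-2 cells (log2 fold change 3.51). Gbp2 (chromosome 3, 142620602 to 142638008) had 139.8, 140.3 and 143 FPKM in cocktail cells, against 16.2, 15.7 and 16.3 FPKM in IL-2 cells (log2 fold change 3.06). The 4 that were not called, Gbp7, Gbp3, Gbp4 and Irgm1, had log2 fold changes of 0.98, 0.98, 0.95 and 0.84. Gbp6, Gbp8, Gbp9 and Gbp10, and Tgtp1 and Tgtp2, are close copies, and reads split between copies make each separate value uncertain. All 16 were higher in cocktail CD44+CD62L- cells than in the same IL-2 libraries, with a median of 1.65, against 4.64% higher among all genes.

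All 3 expressed Ifitm genes fell. Ifitm1 (chromosome 7, 140967221 to 140969825) had 24.3, 27.0 and 27.5 FPKM in cocktail cells, against 3624, 3565 and 3564 FPKM in IL-2 cells, and fell by 7.04 on the log2 scale (SE 0.0790, limma adjusted p = 8.02e-17), the lowest fold change of the genes named here. Ifitm3 had 21.4, 22.3 and 19.6 FPKM in cocktail cells, against 327, 336 and 334 FPKM in IL-2 cells (log2 fold change -3.92). Ifitm2 had 86.8, 84.8 and 87.4 FPKM in cocktail cells, against 504, 487 and 510.0 FPKM in IL-2 cells (log2 fold change -2.52). The 3 genes together held 133.7 ± 1.05 FPKM in cocktail cells and 4417 ± 34.4 FPKM in IL-2 cells (SD, n = 3 each). The other 4 Ifitm genes listed did not pass the filter on low values.

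The general type I interferon response lay between these families, with 3 of 33 higher, 0 lower and a median of 0.30, against 4.67% higher and 3.49% lower among all genes. Irf1, a transcription factor induced by interferon gamma, had 114, 112.5 and 113 FPKM in cocktail cells, against 47.1, 47.4 and 47.3 FPKM in IL-2 cells (log2 fold change 1.24). Ifi44, another interferon-induced gene, averaged 8.80 ± 0.409 FPKM in cocktail cells and 0.590 ± 0.0916 FPKM in IL-2 cells. The antiviral genes Isg15 and Mx1 were not called, at 108.5 ± 3.19 and 71.5 ± 0.808 FPKM in cocktail cells and at 117 ± 1.46 and 119 ± 1.51 FPKM in IL-2 cells.

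**Figure D4:**
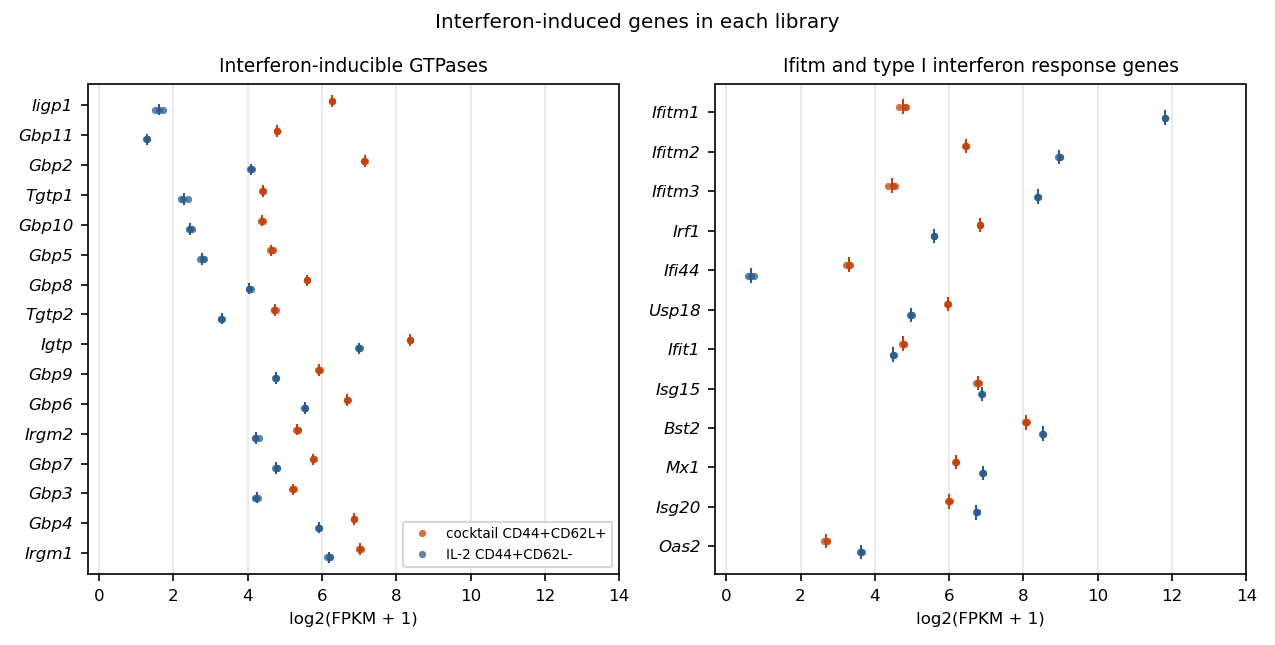
Level of 16 interferon-inducible GTPase genes (left) and of Ifitm and type I interferon response genes (right) as log2(FPKM + 1) in each library; orange points are cocktail CD44+CD62L+ libraries, blue points IL-2 CD44+CD62L- libraries, and ticks their means. All 16 GTPase genes lie to the right in the cocktail cells, the 3 Ifitm genes to the left, and the type I interferon genes on either side.

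In glycolysis, 4 of 23 genes rose and 0 fell, with a median of 0.45, against 4.67% higher and 3.49% lower among all genes. Slc2a3, a high-affinity glucose transporter, had 60.3, 62.0 and 61.9 FPKM in cocktail cells, against 25.5, 25.7 and 25.6 FPKM in IL-2 cells (log2 fold change 1.23). Pdk1, the kinase that turns pyruvate away from the mitochondria, averaged 49.2 ± 0.234 FPKM in cocktail cells and 21.4 ± 0.288 FPKM in IL-2 cells, and Pfkfb3, an activator of glycolysis, averaged 17.3 ± 0.483 FPKM in cocktail cells and 7.95 ± 0.135 FPKM in IL-2 cells. The log2 fold change of Pfkfb3 was 1.03, and 0.99 after quantile normalization, which ends the call. Hk2, the hexokinase that 2-deoxyglucose competes for, and Ldha, lactate dehydrogenase A, did not rise: Hk2 was at 11.4 ± 0.329 FPKM in cocktail cells and 15.9 ± 0.194 FPKM in IL-2 cells, and Ldha at 1520 ± 9.72 FPKM in cocktail cells and 1803 ± 13.3 FPKM in IL-2 cells.

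Genes of hypoxia, which include the glycolytic Pdk1 and Pfkfb3, were higher in 10 of 26 and lower in 0, with a median of 0.82, against 4.67% higher and 3.49% lower among all genes. Vegfa, an angiogenic factor, had 14.4, 14.9 and 14.5 FPKM in cocktail cells, against 1.39, 1.69 and 1.30 FPKM in IL-2 cells (log2 fold change 2.67), and P4ha2, a collagen-modifying enzyme, averaged 10.1 ± 0.246 FPKM in cocktail cells and 0.680 ± 0.0788 FPKM in IL-2 cells. Hif1a, the hypoxia factor itself, had 120.0, 120.0 and 122 FPKM in cocktail cells, against 63.7, 64.5 and 64.4 FPKM in IL-2 cells, a log2 fold change of 0.90 that was not called, but passed at 1.03 after quantile normalization.

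The oxidative phosphorylation list lay below 0 in all 40 of its members, with a median of -0.47. Only Ndufa4 was called, against 3.49% lower among all genes. After quantile normalization 36 of 40 lay below 0, with a median of -0.25. The 40 transcripts summed to 7026, 7038 and 7040.0 FPKM in cocktail cells, against 9716, 9769 and 9768 FPKM in IL-2 cells. Ndufa4, a subunit of the respiratory chain, had 143, 138 and 137 FPKM in cocktail cells, against 351, 365 and 349.8 FPKM in IL-2 cells (log2 fold change -1.34). Median changes were -0.53 for complex I, -0.37 for complex II, -0.63 for complex III with cytochrome c, -0.47 for complex IV and -0.42 for complex V. Ndufa4 was counted under complex I here although its protein is a subunit of complex IV, so the complex I and complex IV medians are approximate. Fatty acid oxidation changed in 1 of 26 genes, against 8.16% of all genes. This was Etfb, an electron carrier, at 85.7 ± 0.896 FPKM in cocktail cells and 187 ± 0.579 FPKM in IL-2 cells, and that call was lost at -0.91 after quantile normalization. Cpt1a, which admits fatty acids to mitochondria, was at 18.4 ± 0.244 FPKM in cocktail cells and 23.9 ± 0.441 FPKM in IL-2 cells, not called.

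Sterol synthesis genes lay below 0 in all 24 members, also after quantile normalization, with a median of -0.73, and 5 fell, against 3.49% lower among all genes. Fdps and Idi1, enzymes of the isoprenoid steps, averaged 73.8 ± 2.04 and 31.6 ± 0.813 FPKM in cocktail cells and 169 ± 2.41 and 70.7 ± 1.77 FPKM in IL-2 cells. Hmgcs1, at the head of the pathway, had 43.0, 43.5 and 44.9 FPKM in cocktail cells, against 88.1, 91.8 and 88.9 FPKM in IL-2 cells (log2 fold change -1.02), a value so near the minimum fold that leaving out IL-2 replicate 2 gave -0.9985 and lost the call. After quantile normalization Fdps was at -0.99, Hmgcs1 at -0.86 and Sc4mol, a sterol demethylation enzyme, at -0.97, so 2 of the 5 calls held. Among amino acid response genes 4 of 24 rose and 0 fell, with a median of 0.06, against 4.67% higher among all genes. Ddit3, a stress-induced transcription factor, averaged 35.4 ± 1.87 FPKM in cocktail cells and 10.6 ± 0.166 FPKM in IL-2 cells, and Atf5, a related stress factor, averaged 9.40 ± 0.0640 FPKM in cocktail cells and 2.74 ± 0.0921 FPKM in IL-2 cells.

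Of 49 cell cycle genes, 1 rose and 1 fell, with a median of 0.00, or 0.16 after quantile normalization, against 4.67% higher and 3.49% lower among all genes. Plk1, a mitotic kinase, had 87.1, 86.9 and 85.4 FPKM in cocktail cells, against 76.4, 77.6 and 76.1 FPKM in IL-2 cells (log2 fold change 0.17), and cocktail CD44+CD62L- cells had 57.6 ± 1.06 FPKM. The list divided by phase when it was split by gene function after the values were seen. The 16 replication and S phase genes all lay below 0, with a median of -0.44 (14 of 16 and -0.27 after quantile normalization), and 19 of 23 mitosis genes lay above 0, with a median of 0.19 (21 of 23 and 0.35). Cdc25b, a phosphatase that starts mitosis, rose, with 123.3, 123.7 and 123.4 FPKM in cocktail cells, against 48.03, 48.78 and 48.92 FPKM in IL-2 cells (log2 fold change 1.33). Ccne1, the cyclin of S phase entry, fell, at 31.2 ± 1.26 FPKM in cocktail cells and 68.2 ± 1.26 FPKM in IL-2 cells (log2 fold change -1.11, and -0.98 after quantile normalization, which ends the call).

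Of 24 apoptosis and survival genes, 2 rose and 1 fell, with a median of -0.19, counts near the 4.67% higher and 3.49% lower among all genes. Bcl2, the inhibitor of apoptosis maintained by IL-7, had 81.8, 81.7 and 83.6 FPKM in cocktail cells, against 25.7, 25.6 and 26.4 FPKM in IL-2 cells (log2 fold change 1.63). Fas, a death receptor, had 33.9, 34.1 and 33.8 FPKM in cocktail cells, against 2.20, 1.84 and 1.76 FPKM in IL-2 cells (log2 fold change 3.58). Its naive level was 31.1 FPKM, near that of the cocktail cells. Bcl2l11, encoding the killer protein BIM that BCL-2 restrains, was at 42.4 ± 0.634 FPKM in cocktail cells and 20.9 ± 0.0776 FPKM in IL-2 cells, and its log2 fold change of 0.99 was just under the minimum.

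Markers of other cells were checked because the cultures were started with dendritic cells. Of 11 dendritic cell and macrophage markers tested, 4 rose and 1 fell, against 4.67% higher and 3.49% lower among all genes. The 24 markers listed summed to 129.9 to 139 FPKM in cocktail cells and 48.3 to 51.1 FPKM in IL-2 cells. The members that rose were H2-Ab1 and Cd74, of antigen presentation by class II, at 17.6 ± 0.456 and 17.2 ± 0.737 FPKM in cocktail cells and at 0.622 ± 0.0300 and 0.559 ± 0.188 FPKM in IL-2 cells, Lyz2, a lysozyme of phagocytes, at 14.8 ± 0.793 FPKM in cocktail cells and 0.427 ± 0.0584 FPKM in IL-2 cells, and Ctss, a lysosomal protease, at 72.1 ± 2.13 FPKM in cocktail cells and 24.5 ± 0.724 FPKM in IL-2 cells. The member that fell was Fcer1g, a signalling chain of Fc receptors, at 2.13 ± 0.393 FPKM in cocktail cells and 15.9 ± 1.23 FPKM in IL-2 cells. The dendritic cell gene Clec9a was at 0 in both populations, the integrin gene Itgax was at 0.664 FPKM in cocktail cells and 1.56 FPKM in IL-2 cells, and the macrophage receptor gene Csf1r at 0.323 FPKM in cocktail cells and 0.00619 FPKM in IL-2 cells. Uncultured naive cells held 14.98 FPKM of H2-Ab1 and 57.3 FPKM of Cd74. They also held 22.6 FPKM of the B cell gene Cd79b, which was at 2.17 FPKM in cocktail cells and 6.36 FPKM in IL-2 cells. The part of dendritic cells, B cells or other cells in the results was not tested. B cell markers gave 0 higher and 1 lower of 8, NK cell markers 0 and 1 of 3, and CD4 T cell markers 1 and 2 of 6. Erythroid, platelet and neutrophil markers gave 2 and 0 of 3. All are to be set against 4.67% higher and 3.49% lower among all genes. The last of them were S100a8 and S100a9, at 2.29 and 1.18 FPKM in cocktail cells and 0.0611 and 0.0398 FPKM in IL-2 cells.

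**Figure D5:**
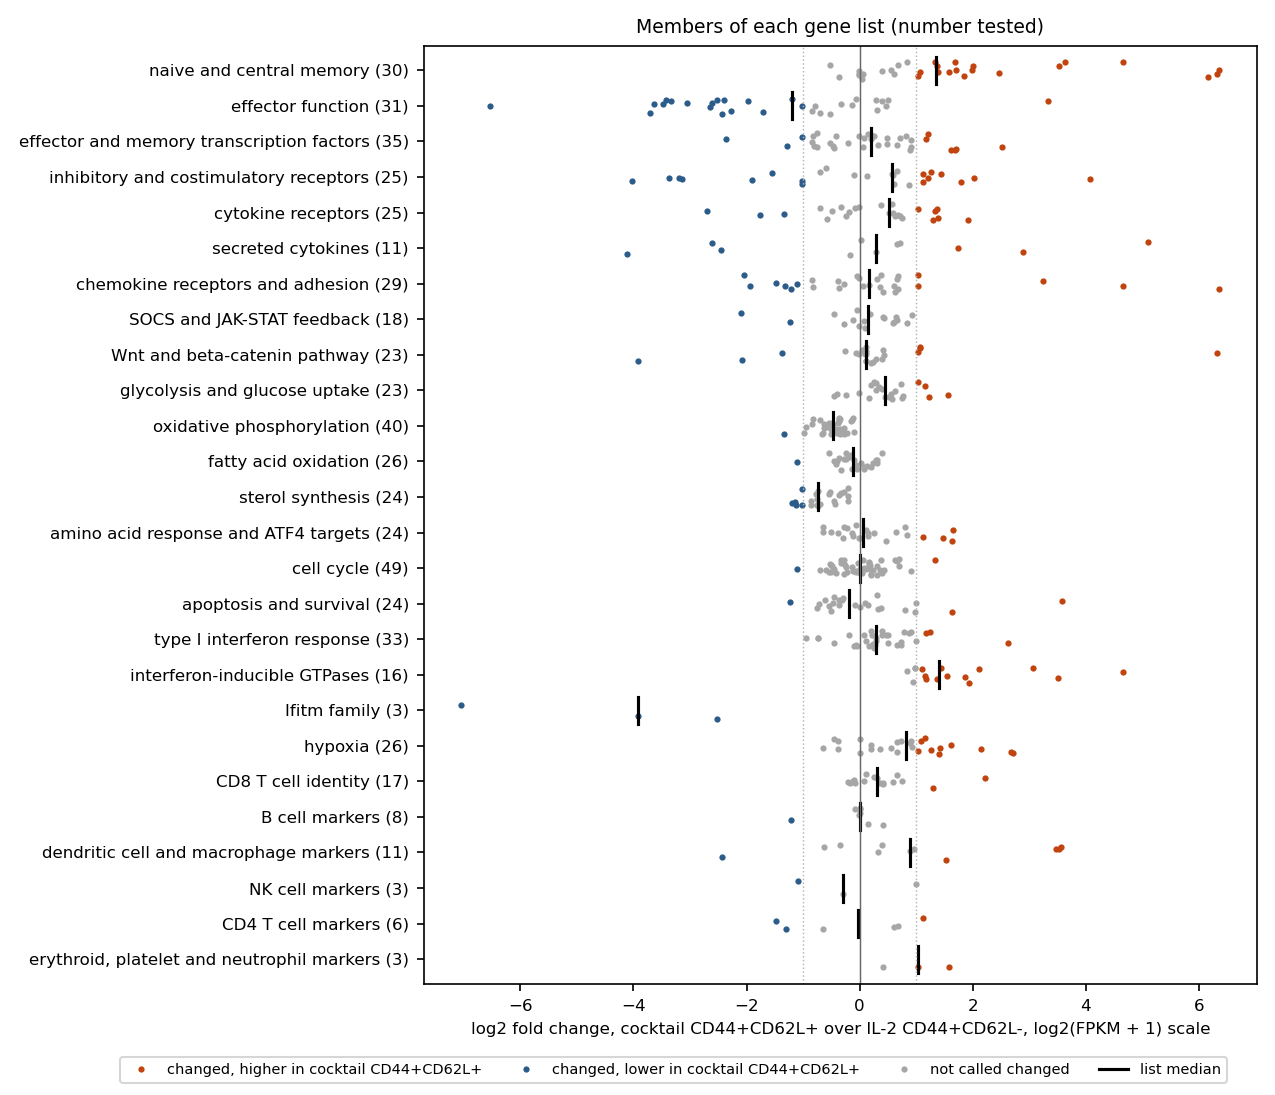
Log2 fold change of each tested member of the 26 gene lists, cocktail CD44+CD62L+ over IL-2 CD44+CD62L- cells; coloured points are genes called changed, grey points genes not called, black bars list medians and dotted lines the minimum fold. Gzmb is not drawn; the naive and central memory list, the GTPases and the hypoxia list lie to the right, the effector list, the Ifitm family, oxidative phosphorylation and sterol synthesis to the left.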

How the data were processed

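RNA-seq was measured in 15 libraries of 5 sorted CD8 T cell populations, and 6 of them form the comparison. The authors deposited a single table of normalized FPKM values with 1 column per library. Reads had been processed with TopHat2 2.0.9 and Cuffdiff 2.1.1 on mm10, per the submitters' processing notes; the annotation, settings and strand use were not given in the sources used here, so reads of overlapping and antisense genes cannot be told apart. No read counts were given, the absolute depth is unknown, and no counting interval is given.

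Genes with a population mean of at least 1 FPKM in any of the 5 populations were kept, which left 11242 of 23284 entries, 6039 of which were 0 in all libraries. Values were taken as log2(FPKM + 1) and fitted to all 15 libraries with limma 3.58.1 (lmFit, eBayes with a trend, R 4.3.3). The p-values were adjusted by Benjamini-Hochberg over all genes tested, and a call required an adjusted p under 0.05 and a difference of 1 or more log2 units. A two-sided exact permutation test of 3 against 3 libraries cannot go below 0.1 and was not used. Lists were described by counts and medians. Promoters came from RefSeq (GRCm38.p6) and gene positions from GENCODE (GRCm38), and Python 3.11.15 with matplotlib 3.10.9 was used for the rest.

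Samples were grouped by their labels. The genes named were the 12 highest and 12 lowest called genes with a mean of at least 10 FPKM whose libraries did not overlap, leaving out predicted genes, microRNA, small nucleolar, small nuclear and Cajal body RNA genes and antigen receptor segments (Rpph1 is in none of these classes), a fixed panel, and up to 4 members of each list with at least 5 FPKM. A few of the genes the rule names are not reported here. Further list members were named after their values were seen. The members and lists were chosen with earlier results of these data known. Alternatives were the pseudocount, the filter, the scaling, the samples in the fit, a replicate block, the variance trend, the minimum fold, genes listed at 0, small RNA genes and leaving out each library.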

Additional observations from a re-analysis of the deposited data

Results flagged for a closer look

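For 6 named genes the difference from the same IL-2 libraries was not the same in cocktail CD44+CD62L+ and cocktail CD44+CD62L- cells, by limma's test of the difference between the 2 cocktail populations together with the minimum fold. All log2 differences here are cocktail CD44+CD62L+ minus cocktail CD44+CD62L- cells. Penk, the proenkephalin gene, differed by 1.23 (log2 fold changes against IL-2 cells of 4.48 in CD62L+ and 3.25 in CD62L- cells, adjusted p = 1.82e-10). Gzma differed by -1.20 (-6.53 in CD62L+ and -5.33 in CD62L- cells, adjusted p = 4.14e-10), and Ifitm1 by -1.10 (-7.04 in CD62L+ and -5.94 in CD62L- cells, adjusted p = 2.03e-07). Klra5, of a family that shares reads, differed by -1.07 (-3.84 in CD62L+ and -2.77 in CD62L- cells, adjusted p = 1.23e-08). Clec12a, a lectin receptor gene of myeloid cells, differed by -1.17 (-2.15 in CD62L+ and -0.98 in CD62L- cells, adjusted p = 2.09e-10). Its libraries had 2.73, 2.78 and 2.92 FPKM in cocktail CD44+CD62L+ cells, against 15.7, 16.2 and 15.8 FPKM in IL-2 cells. Rpph1, a short RNA, differed by -1.04 (-5.42 in CD62L+ and -4.38 in CD62L- cells, adjusted p = 0.0127). For Gzma, Ifitm1 and Klra5 the cocktail CD44+CD62L- cells were also far below IL-2 cells, and the gate difference was the smaller of the 2. Groups of 3 libraries were not tested for single outlying libraries.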

How the results depend on the processing

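The count of changed genes rests on the fold criterion and the pseudocount. A pseudocount of 0.1 FPKM gave 1429 changed genes, 877 higher and 552 lower, and a pseudocount of 5 FPKM gave 387, 219 higher and 168 lower. With no minimum fold 9458 genes were changed, 4701 higher and 4757 lower, and with a minimum log2 fold change of 2 there were 198, 113 higher and 85 lower. Between the cocktail populations a pseudocount of 0.1 gave 41 changed genes and of 5 gave 7. All other settings run kept these counts within 1.5 times of those reported. Leaving out each library in turn gave 916 to 926 changed genes, 522 to 536 higher and 386 to 404 lower, and 13 to 16 between the cocktail populations. With the replicate number as a block 918 genes changed, 525 higher and 393 lower, and 13 between the cocktail populations. Same-numbered libraries did not deviate together (correlations -0.0155, -0.0949 and -0.0848), so they share only a number. Over the named genes and settings, 2000 values kept their side of the threshold, 66 lost a call, 22 gained one and 0 reversed. The list medians of low genes move with the pseudocount: at 0.1 and 5 FPKM the effector list had -1.83 and -0.99, and the naive and central memory list 1.43 and 0.66. Other named genes that lost a call at 5 FPKM were Hmgcs1 (-0.95), Il6st (0.76), Xcr1 (-0.92), Ccr4 (-0.79), Pfkfb3 (0.78), Atf5 (0.90), Sc4mol (-0.88), Gzmg (-0.33), Cd79b (-0.66), S100a8 (0.52) and S100a9 (0.29), and S100a9 lost it after quantile normalization (0.88). Sc4mol lost its call, at -0.996, without cocktail CD44+CD62L+ replicate 1. Limits are that the replicates are technical, that culture and CD62L gate change together, that the depth is unknown, that a listed 0 may be a failed estimate, and that differences of low genes are understated.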

Other observations

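Of the changed genes with a mean of at least 10 FPKM, 343 were in none of the lists, and the genes given here were chosen from their values and so carry no test of their own. Dpp4, encoding the peptidase CD26, had 81.9, 82.4 and 83.0 FPKM in cocktail cells, against 14.99, 14.87 and 14.59 FPKM in IL-2 cells, with 48.3 FPKM in naive cells. Kit, the receptor for stem cell factor, had 12.9, 13.0 and 13.3 FPKM in cocktail cells, against 1.27, 1.19 and 1.13 FPKM in IL-2 cells, and 0.261 FPKM in naive cells. Tnfsf4, encoding the costimulatory OX40 ligand, had 21.03, 21.48 and 21.74 FPKM in cocktail cells, against 1.13, 1.49 and 1.37 FPKM in IL-2 cells, and the gene of its receptor, Tnfrsf4, was at 27.7 FPKM in cocktail cells and 12.2 FPKM in IL-2 cells. Crtam, an adhesion receptor of activated CD8 T cells, averaged 23.6 ± 0.126 FPKM in cocktail cells and 2.30 ± 0.271 FPKM in IL-2 cells (SD, n = 3 each), with 17.1 FPKM in naive cells.

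Among the genes that were lower, 4 were chosen in the same way. Egr1, an immediate early transcription factor, had 13.1, 13.5 and 13.2 FPKM in cocktail cells, against 82.1, 80.9 and 80.1 FPKM in IL-2 cells. Dusp5 and Dusp4, phosphatases that switch off ERK, averaged 16.8 ± 0.674 and 3.82 ± 0.236 FPKM in cocktail cells and 79.5 ± 1.14 and 19.8 ± 0.787 FPKM in IL-2 cells. Lat2, an adaptor protein related to LAT, had 3.29, 3.83 and 3.42 FPKM in cocktail cells, against 61.9, 60.8 and 60.9 FPKM in IL-2 cells. For each of these 4 genes every cocktail library was below every IL-2 library, and 85.1% of all genes tested had no overlap in either direction.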
